A study of Mus musculus with 8 samples.

Results

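The mouse Dcir (dendritic cell immunoreceptor) cluster is a run of C-type lectin receptor genes on chromosome 6, described here by its open chromatin in splenic dendritic cells. Its 8 genes, out of 21883 protein-coding genes, are Clec4a1, Clec4a3, Clec4a4, Clec4b1, Clec4a2, Clec4n, Clec4d and Clec4e, in chromosome order. They were chosen by name, and every deposited ATAC-seq summit within 20 kb of a gene's span was taken. The windows join into 3 stretches of the mm10 genome, chr6:122901848-123091555, chr6:123102690-123163999 and chr6:123209843-123309871, together 351 kb. They held 138 of the 600268 summits of the 8 libraries.

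ATAC-seq marks open chromatin by the places where the Tn5 transposase can cut, and a summit is the highest point of a called peak. Spleen cells had been sorted as lineage-negative, CD11c+, MHCII+ and CD64-, with cDC1 (type 1 conventional dendritic cells) XCR1+ CD11b- and cDC2 (type 2) XCR1- CD11b+. All mice carried a floxed Hdac1 gene, which encodes a histone deacetylase. Those without a named Cre are called WT and those with Mx1-Cre are called KO. Mx1-Cre is driven by an interferon-responsive promoter and is not limited to dendritic cells. Every mouse, WT included, had received poly I:C, and cells were sorted 2 weeks later. Each of the 4 groups has 2 libraries. The labels do not say that these come from separate animals, so each p-value measures only the spread between libraries, which may be technical. The lists give no read counts, so depth is unknown. Hdac1 itself had 1 to 2 nearest summits in each WT library and 1 in each KO library, in lists of equal length. A summit elsewhere in the gene does not check the deletion, and coverage of the floxed part is not in the summit lists.

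These receptors are type II membrane proteins with a single C-type lectin domain facing outward. Clec4a4 (DCIR2) and Clec4a2 (DCIR1) carry an inhibitory tyrosine motif in the cytoplasmic tail, which recruits the phosphatases encoded by Ptpn6 and Ptpn11. Clec4b1 (DCAR), Clec4n (Dectin-2), Clec4d (MCL) and Clec4e (Mincle) lack such a motif, and the activating members signal through the Fc receptor gamma chain, the kinase Syk and the adaptor Card9. In mouse spleen, the 33D1 antibody against Clec4a4 has long been used to mark CD8-negative dendritic cells, a population that largely matches cDC2.

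RefSeq (GRCm38.p6) promoter entries were matched for 6 of the 8 genes, 7 entries in all. Clec4a4 and Clec4n had no entry. Each entry spans 250 bases before the listed start and 50 bases from it. The 250 bases before the Clec4a1 start, chr6:122921598-122921847 on the plus strand, are printed because a site of all 8 libraries lay in or next to them. Summits of 3 libraries lay in these bases, and those of the other libraries lay just before them. The site ranked higher in cDC2 in lists of equal length, a call lost with all deposited summits (limma adjusted p = 0.0697).

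Clec4a1: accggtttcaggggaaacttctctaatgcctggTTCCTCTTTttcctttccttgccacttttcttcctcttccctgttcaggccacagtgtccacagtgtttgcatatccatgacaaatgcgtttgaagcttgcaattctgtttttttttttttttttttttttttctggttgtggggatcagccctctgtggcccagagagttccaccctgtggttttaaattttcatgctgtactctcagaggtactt

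The capitals mark TTCCTCTTT, whose reverse complement is AAAGAGGAA. It was the longest stretch found, on either strand, in the entries of at least 5 of the 6 genes. It was picked after the sequences had been read, because the genes share it, so its sharing is no test. The 29 bases around it are shown to compare 4 of the genes, with the same capitals, each on its gene's own strand. They lie at chr6:122921621-122921649 for Clec4a1, chr6:122952584-122952612 for Clec4a3, chr6:123049884-123049912 for Clec4b1 and chr6:123262104-123262132 for Clec4d, all on the plus strand.

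Clec4a1: taatgcctggTTCCTCTTTttcctttcct
Clec4a3: aatgccctggTTCCTCTTTttcattcctt
Clec4b1: gtttttcaatTTCCTCTTTcccacatcct
Clec4d: caatttccttTTCCTCTTTgctccctgtg

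The stretch began at -217 from the listed start in Clec4a1, -50 in Clec4a3, -68 in Clec4b1 and 7 in Clec4d, where 0 is the start base. Clec4a2 did not hold it. Of 32851 promoter entries, 1.39% held it. The result depended on the window. A first search of the 250 bases before the start alone gave only the 7-base AGAGGAA in 5 genes, held by 8.55% of entries, and the 9-base stretch was then in 4 genes, without Clec4d. The whole entries were searched after that result had been seen. Of the motifs chosen by name, GAGGAAGT (PU.1) was in no entry of the 6 genes, against 3.2% of all entries. The shared AAAGAGGAA ends in GAGGAA, the letters with which this motif begins. Its copies thus held the motif without the closing GT. AGAGGAA, which contains these 6 letters, was in 10.4% of all whole entries, so this overlap in letters is a description. The composite ETS-IRF motif was in Clec4a1 alone (2.71% of all entries), where its match at -209 overlapped the capitals by 1 base. The IRF motif was in Clec4b1 and Clec4d (3.44%), and both matches also overlapped the capitals. TGANTCA (AP-1) was in Clec4a2 (7.81%), TTGCNNAA (C/EBP) in Clec4e (10.8%) and TGTGGTTT (RUNX) in Clec4a1 (1.78%). Both strands were searched. A match describes letters, not a bound site.

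Because the lists differ in length, from 61737 to 96031 summits, each was shortened to its 61737 highest-scoring summits. In these lists of equal length the windows held 11 and 10 summits (WT) and 11 and 14 (KO) in the cDC1 libraries. The cDC2 libraries held 17 and 17 (WT) and 15 and 18 (KO). The highest cDC1 library was thus 1 summit below the lowest cDC2 library. The means were 11.5 ± 1.73 in cDC1 and 16.75 ± 1.26 in cDC2 (SD, n = 4). The separation was not seen in the full lists, where cDC1 libraries held 14, 17, 17 and 20 summits and cDC2 libraries 19, 17, 15 and 19. Among the 30868 best summits of each list it was again present, with 4 to 6 summits in cDC1 and 7 to 9 in cDC2. The shortening removed different numbers of weak summits, the full lengths being 76022, 77585, 74963 and 96031 summits in cDC1 and 66609, 61737, 69025 and 78296 in cDC2.

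The extra cDC2 summits lay mostly at one end of the cluster. The windows of Clec4a1, Clec4a3 and Clec4a4 held 5, 5, 4 and 7 summits in the cDC1 libraries and 11, 11, 9 and 10 in the cDC2 libraries. In the full lists the same windows held 6, 7, 6 and 10 against 11, 11, 9 and 10, where KO cDC1 replicate 2 reached the cDC2 range. In the Clec4b1 and Clec4a2 windows the equal lists held 2, 2, 3 and 4 summits in cDC1 and 2 in each cDC2 library. The Clec4n, Clec4d and Clec4e windows held 4, 3, 4 and 3 against 4, 4, 4 and 6. Summits within 250 bp of each other were joined into sites, and the map of summits across the cluster shows where these fell.

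**Figure D1:**
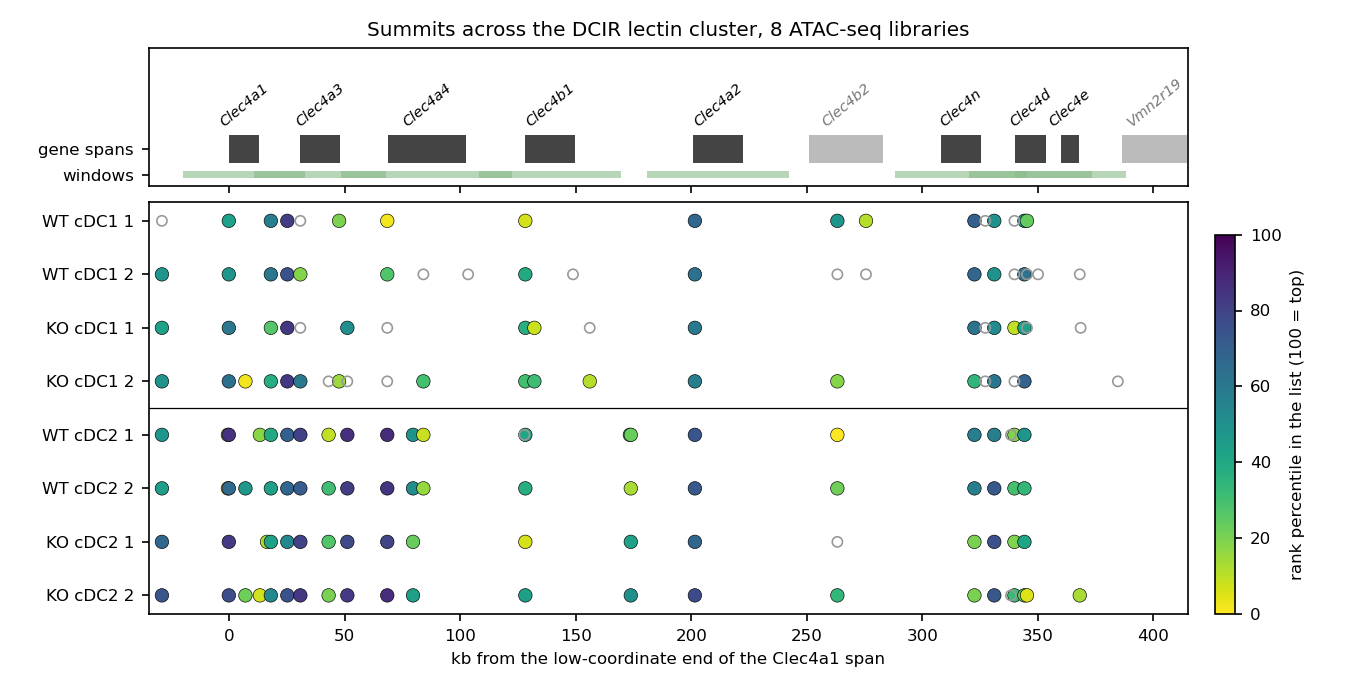
Summits of the 8 libraries across the cluster, by distance in kb from the low-coordinate end of Clec4a1. Filled points are sites in the lists of equal length, coloured by rank percentile (100 is the top score of the list), and open points are sites found only in the full list. Dark bars are the 8 genes, grey bars other genes, green bars the windows, and the cDC2 libraries (lower rows) hold more and darker points over the first 100 kb.

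The full lists gave 32 sites in the windows, of which 11 were found in all 8 libraries and 7 in 1 library only. The equal lists gave 24 sites, 8 of them in all 8 libraries. Found in every cDC2 library and in no cDC1 library were 2 of the 24 sites, against 2.42% of the 112443 sites of the genome. No site of the windows was found in cDC1 alone, against 4.33% of all sites. Ranks were then compared, with an absent site placed below every listed one. All 4 cDC2 libraries ranked above all 4 cDC1 libraries at 8 of the 24 sites (33.3%), against 8.96% of all sites, and the reverse held at 0, against 10.2%. For 1 site taken alone, an exact 2-sided permutation test of such a separation gives p = 0.0286, the smallest possible with 4 against 4. No adjusted call can come from it. With percentiles in the full lists the separation held at fewer sites: 4 of 32 sites were higher in every cDC2 library, against 4.79% of all sites, and 1, inside Clec4d, in every cDC1 library, against 12.1%. These 4 were the site inside Clec4a3, the site between Clec4a3 and Clec4a4, the edge of Clec4a4 and the first site inside Clec4a4. Both comparisons of ranks were added after the data had been seen.

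**Figure D2:**
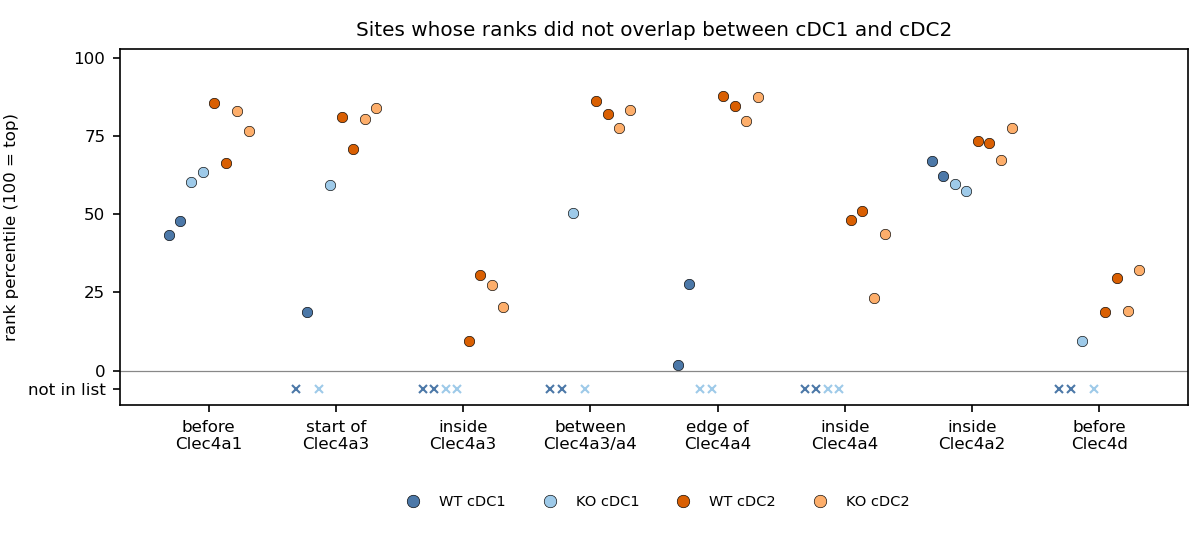
Rank percentile in lists of equal length (100 is the top), 1 point per library, at the 8 sites where cDC1 and cDC2 did not overlap. Crosses mark libraries without the site in the equal list. The widest gap is at the edge of Clec4a4, where cDC2 libraries lie between 79.9 and 87.9 and the highest cDC1 library is at 27.7.

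Clec4a4, the inhibitory receptor that marks cDC2, spans chr6:122990367-123024421. Its nearest summits numbered 1, 1 (WT), 0 and 1 (KO) in cDC1, and 3, 3 (WT), 2 and 2 (KO) in cDC2. Every cDC2 library had more than any cDC1 library. The difference was 1.04 ± 0.22 (SE) on the log2(summits + 1) scale, with an adjusted p of 0.0063 from limma over 14065 genes. Its cDC1 mean of 0.75 lies under the filter of a mean of 1 summit, so Clec4a4 was admitted through its cDC2 libraries. Without the filter the limma adjusted p was 0.0286 over 16782 genes. The means were 0.75 and 2.5 summits, a small number of peaks. The call was not made with the full lists (0.40, limma adjusted p = 0.355), where the libraries held 1, 3, 1 and 2 summits in cDC1 and 3, 3, 2 and 2 in cDC2. It was also not made when limma ran without the added rounding variance (adjusted p = 0.0746), or with trend and robust variances (0.0875).

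The site at the low-coordinate edge of Clec4a4, chr6:122990098-122990315, ends 52 bp before the gene span. In the equal lists its rank percentiles were 1.85 and 27.7 in WT cDC1, and it was absent from both KO cDC1 lists. In cDC2 it stood at 87.9 and 84.6 (WT) and 79.9 and 87.4 (KO). The full lists of all 8 libraries held it, with percentiles of 20.3, 42.4, 11.6 and 28.2 in cDC1 and 88.7, 84.6, 82.0 and 90.0 in cDC2. The site was thus called everywhere, and differed in its place within each list. In the full lists the rank difference was 60.7 ± 7.88 percentile points (SE), with an adjusted p of 0.00139 from limma over 34548 sites, of which 7.66% ranked higher in cDC2 by this test. Inside the Clec4a4 span, chr6:123001298-123001416 was found in the cDC2 libraries alone, at percentiles 48.2, 51.0, 23.3 and 43.8. No cDC1 library listed it even in the full lists. A second site inside the gene, chr6:123005770-123005909, did not follow the subsets, being in KO cDC1 replicate 2 (29.8) and in both WT cDC2 libraries (8.5 and 15.6).

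Clec4a2, the other receptor with the inhibitory motif, spans chr6:123122690-123143999 and had 1 summit in every library. That summit, chr6:123123284-123123475, lay 594 to 785 bp inside the gene from the listed start. Its percentiles were 67.2, 62.2, 59.7 and 57.3 in cDC1 and 73.4, 72.6, 67.4 and 77.5 in cDC2. The groups did not overlap, but WT cDC1 replicate 1 and KO cDC2 replicate 1 were nearly level, and the rank fit gave 11.1 ± 5.51 (SE, limma adjusted p = 0.153). Whether the subset differences of Clec4a2 and Clec4a4 differ from each other was not tested.

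**Figure D3:**
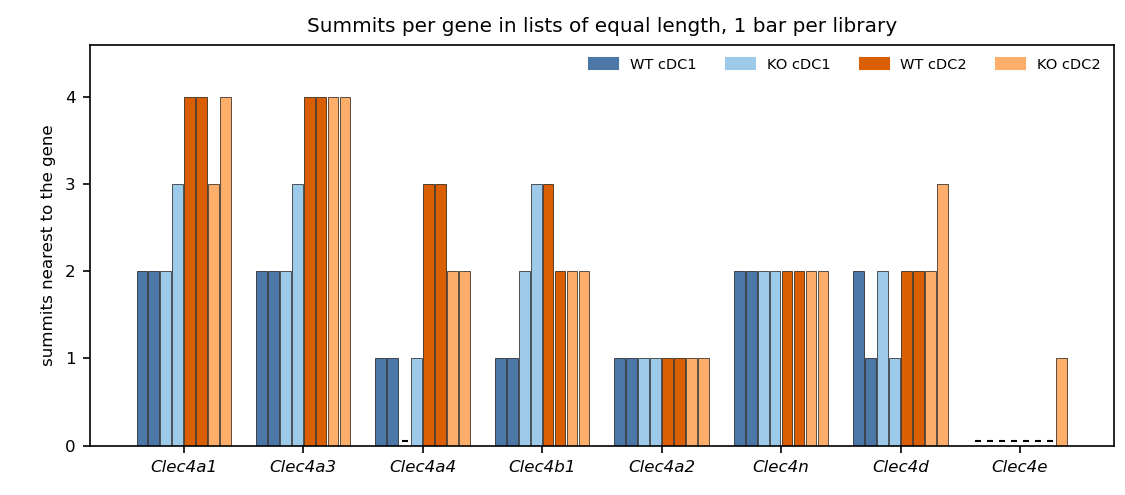
Number of summits nearest to each gene of the cluster in lists of equal length, 1 bar per library, with a dash for 0. Clec4a1, Clec4a3 and Clec4a4 stand at 3 to 4, 4 and 2 to 3 summits in cDC2 against 2 to 3, 2 to 3 and 0 to 1 in cDC1, while Clec4a2 and Clec4n are level at 1 and 2.

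Clec4a1 and Clec4a3 (DCIR4 and DCIR3), which lie next to each other, are relatives of Clec4a2 and Clec4a4 without the inhibitory motif. Clec4a3, chr6:122952515-122969878, had 2, 2, 2 and 3 summits in the cDC1 libraries and 4 in each cDC2 library. Its difference was 0.63 ± 0.18 (SE) on the log2 scale with a limma adjusted p of 0.0364. The call was lost with the full lists (0.28, adjusted p = 0.473), with a pseudocount of 0.5 (0.0513), without the filter on low genes (0.0762), and on leaving out any of 6 libraries in turn (0.0503 to 0.137). These 6 were both WT cDC1 libraries, KO cDC1 replicate 1, WT cDC2 replicate 2 and both KO cDC2 libraries.

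At the Clec4a3 start, chr6:122952507-122952645, which overlaps the listed start, 2 of the 4 cDC1 libraries had a summit in the equal lists, at percentiles 18.7 (WT replicate 2) and 59.2 (KO replicate 2). The cDC2 libraries stood at 81.1, 71.0, 80.4 and 84.1. In the full lists it was found in all 8, at 4.78, 35.3, 11.6 and 73.8 in cDC1 and 82.4, 71.0, 82.4 and 87.5 in cDC2, so that KO cDC1 replicate 2 overlapped the cDC2 range there. The rank difference in the full lists was 49.4 ± 12.03 points (SE, limma adjusted p = 0.0131). The 8 summits lay between -137 and 1 from the second listed start of Clec4a3, whose copy of the capitalised stretch begins at -50. Inside Clec4a3, chr6:122964772-122964866 was in the cDC2 equal lists only, with low percentiles of 9.44, 30.6, 27.3 and 20.3, and the full list of KO cDC1 replicate 2 also held it, at 10.3. Between Clec4a3 and Clec4a4, chr6:122972875-122972974 was at 86.3, 82.1, 77.6 and 83.5 in cDC2 and at 50.5 in KO cDC1 replicate 1, the only cDC1 library with it in the equal lists.

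Clec4a1, chr6:122921848-122934619, had 2, 2, 2 and 3 summits in cDC1 and 4, 4, 3 and 4 in cDC2, with overlap at 3 and no call (0.55 ± 0.18 SE, limma adjusted p = 0.0701). Its promoter site, chr6:122921564-122921685, with summits from -284 to -163 of the start, was present in every library. In cDC1 the percentiles were 43.5 and 47.8 (WT) and 60.4 and 63.6 (KO). In cDC2 they were 85.8 and 66.3 (WT) and 83.0 and 76.5 (KO). The rank was 24.1 ± 6.16 points higher in cDC2 (SE, adjusted p = 0.0143 from limma over 29645 sites found in all libraries). Among the 8 sites of the windows in that fit it was the only one called, against 13.9% of all sites called higher and 11.7% called lower. The call was lost with the full lists (15.7 points, adjusted p = 0.0697) and without WT cDC2 replicate 1 (19.2, 0.0582).

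A neighbouring site leaned the other way. At chr6:122946926-122946961, 5554 bp before Clec4a3, the percentiles were 82.2, 75.1, 83.9 and 83.8 in cDC1 and 69.7, 67.5, 53.2 and 75.2 in cDC2. WT cDC1 replicate 2 and KO cDC2 replicate 2 overlapped narrowly. The difference of -14.8 ± 5.38 points (SE) had a limma adjusted p of 0.059, above the threshold. With the full lists, which differ in length, it was -16.0 (0.0385), in a fit that called 15.5% of all sites lower in cDC2 and 7.66% higher. A further shared site between the same genes, chr6:122939771-122939863, showed no order by subset (-0.94 ± 7.66 points, SE, limma adjusted p = 0.942).

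**Figure D4:**
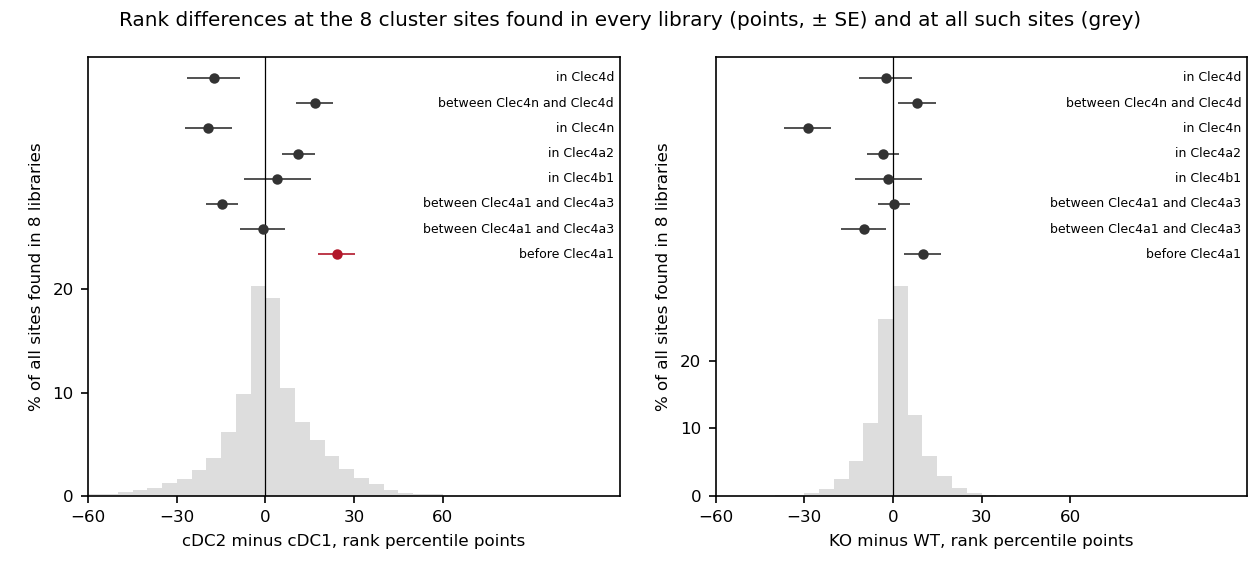
Rank differences in percentile points at the 8 sites of the windows found in every library (points with SE, labelled by place) above the distribution over all 29645 such sites (grey, % of sites). On the left, cDC2 minus cDC1, the site before Clec4a1 (red) is the one called by limma. On the right, KO minus WT, none is called and the Clec4n site lies farthest from 0, at -28.9.

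Among the activating receptors, Clec4b1 (chr6:123049962-123071555) had 1, 1 (WT), 2 and 3 (KO) summits in cDC1, and 3, 2 (WT), 2 and 2 (KO) in cDC2. Some of the cDC2 summits lay over 20 kb beyond the gene. Within 20 kb of its span the cDC1 libraries had 1, 1, 2 and 3 and each cDC2 library had 1, and the difference changed sign, from 0.29 ± 0.19 to -0.40 ± 0.19 with summits at most 20 kb away (SE), without passing in either case (limma adjusted p = 0.401 and 0.217). The site at its start, chr6:123049899-123050061, was in all libraries at low to middle rank, with percentiles of 6.40, 39.1, 36.9 and 30.2 in cDC1 and 40.8, 37.5, 6.43 and 43.8 in cDC2. The groups overlapped fully. A site inside the gene, chr6:123053878-123053898, was found in the KO cDC1 libraries alone, at 8.14 and 31.0. The KO minus WT difference in cDC1, 0.79 ± 0.27 (SE), did not pass (limma adjusted p = 0.635), nor did the difference of the genotype effects between subsets (-1.0 ± 0.38 SE, adjusted p = 1).

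Clec4n, the alpha-mannan receptor Dectin-2, spans chr6:123229843-123247024 and had 2 nearest summits in every library. Its inner site, chr6:123244289-123244496, stood at 70.1 and 66.9 (WT) against 61.7 and 34.7 (KO) in cDC1. In cDC2 it stood at 58.1 and 57.2 (WT) against 20.1 and 20.3 (KO). Within each subset both KO libraries lay below both WT libraries, although across subsets the KO cDC1 replicate 1 value overlapped the WT cDC2 values. The KO minus WT difference was -28.9 ± 7.96 points (SE). Its unadjusted p of 0.00312 became 0.269 after limma's adjustment over all sites, and so did not pass. Within cDC2 the adjusted p was 0.397. The subset difference of -19.4 ± 7.96 points (SE) had an adjusted p of 0.0892 and did not pass. With the full lists it was -23.0 (0.0312), in the fit of unequal lists that called 15.5% of all sites lower. The neighbouring site chr6:123252946-123253010, between Clec4n and Clec4d, ran from 49.0 to 60.6 in cDC1 and from 57.0 to 75.4 in cDC2 (16.6 ± 6.37 points SE, limma adjusted p = 0.0713).

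Clec4d, the receptor that partners Mincle, spans chr6:123262107-123275268 and had 2, 1, 2 and 1 summits in cDC1 and 2, 2, 2 and 3 in cDC2 (0.40 ± 0.21 SE, limma adjusted p = 0.281), a difference of -0.10 with the full lists. The site before its start, chr6:123261649-123261788, was at 18.8, 29.5, 19.2 and 32.3 in cDC2 and at 9.56 in KO cDC1 replicate 1 alone of the cDC1 equal lists. All 8 full lists held it, with overlap between the subsets (10.1 to 35.0 in cDC1 and 24.8 to 46.6 in cDC2). The site inside Clec4d, chr6:123265974-123266098, was in all libraries at 43.3, 63.1, 43.2 and 68.4 in cDC1 and 47.5, 33.8, 41.6 and 24.7 in cDC2, with overlap in the equal lists. Clec4e, the trehalose dimycolate receptor Mincle, chr6:123281789-123289871, had 1 nearest summit in the equal lists, in KO cDC2 replicate 2 at a percentile of 12.98. The full lists of WT cDC1 replicate 2 and KO cDC1 replicate 1 also held 1 each. Clec4e was too low to be tested. No called peak does not show closed chromatin.

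With no filter on low genes, limma called 1 of the 8 genes (Clec4a4) higher in cDC2, against 2.34% of 16782 genes, and 0 lower, against 2.94%. With the filter, 7 of the 8 were tested and 2 (Clec4a3 and Clec4a4) were called higher, against 4.70% of 14065 genes, and 0 lower, against 5.66%. Clec4a4 was among those 7 only through its cDC2 libraries, so the second count is a description. Within a genotype, Clec4a4 differed by 1.00 ± 0.31 in WT (SE, limma adjusted p = 0.0888) and by 1.08 ± 0.31 in KO (0.0894). Fitted on the groups of each contrast alone, 2 libraries against 2, both passed (limma adjusted p = 0.0249 and 0.00937). These fits kept the filter that Clec4a4 passed only through its cDC2 libraries, so they too are a description. The difference between the WT and KO values was 0.085 ± 0.434 (SE, limma adjusted p = 1).

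By genotype over both subsets, 0 of the 7 genes was called, against 0.0427% of all genes, by limma. At an unadjusted p under 0.05 the count was also 0, and over all genes it was 877 (6.24%). Clec4a4 had the lowest unadjusted p of the 7 (0.0511), at -0.46 ± 0.22 (SE, KO minus WT) and an adjusted p of 0.796. No site was found in WT alone or in KO alone, against 0.0694% and 0.0836% of all sites. None separated the 4 WT from the 4 KO libraries by rank, against 0.645% and 0.854%, nor by percentile in the full lists, against 0.252% and 1.6%. The limma rank fit called 0 of 29645 sites by genotype, with 3541 (11.9%) at an unadjusted p under 0.05. Within cDC1, 4 of the 24 sites ranked higher in both WT libraries and 4 in both KO libraries, against 11.7% and 11.3% of all sites. Within cDC2 the counts were 4 and 1, against 10.1% and 11.2%.

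Between the windows lay 4 sites. Of these, chr6:123095590-123095688, between Clec4b1 and Clec4a2, was found in all cDC2 libraries (percentiles 23.0, 13.1, 43.3 and 50.3) and in no cDC1 library. A site inside Clec4b2, a gene close in sequence to Clec4b1 that lies within the cluster, chr6:123185026-123185086, was in 2 cDC1 and 3 cDC2 equal lists. Neither Clec4b2 nor Vmn2r19, a pheromone receptor gene beyond Clec4e, had enough summits to be tested. The closest site beyond the Clec4a1 window, 29 kb before that gene, was in the full lists of all libraries.

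Of 12 genes that act downstream of these receptors, all tested, 1 had more summits in cDC2 and 0 had fewer by limma, against 4.70% and 5.66% of all genes, a share too near the background to be a result about the list. Its median difference was 0.16 against 0 over all genes. The gene was Card9, the adaptor below Syk, with 1 summit in each cDC1 library and 2, 1, 3 and 3 in cDC2 (0.65 ± 0.19 SE, adjusted p = 0.0451). WT cDC2 replicate 2 overlapped cDC1. Fcer1g, the gamma chain, had 1, 1, 2 and 1 summits in cDC1 and 3, 1, 1 and 2 in cDC2, and Syk had 9 to 12 in cDC1 and 9 to 15 in cDC2. Ptpn6, the phosphatase SHP-1, had 4 to 5 summits in cDC1 and 5 in every cDC2 library. Of 13 other C-type lectin genes, 9 were tested and 0 were called by limma, with 2 at an unadjusted p under 0.05, against 24.5% of all genes. Cd209a had the lowest adjusted p (0.0772), with 2, 2, 1 and 1 summits in cDC1 and 3, 2, 2 and 5 in cDC2.

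The genes whose summits followed Clec4a4 most closely over the 8 libraries were Htr1f (Pearson r = 0.985), Pkia (0.977), Rdx (0.972), Brf1 (0.971) and S100a5 (0.967), of 12433 genes compared. Htr1f, a serotonin receptor gene, had 5, 6, 3 and 6 summits in cDC1 and 11, 10, 9 and 8 in cDC2. With counts this small the values are a description.

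The sort was checked on marker genes. The summed summits of 9 cDC1 genes ran from 79 to 83 in cDC1 libraries and from 53 to 58 in cDC2, and those of 9 cDC2 genes from 49 to 58 and from 71 to 73. Of the cDC1 genes 5 had the higher mean in cDC1, among them Cadm1 (25 against 13.5), Cd8a (6.0 against 0.25) and Irf8 (14.75 against 9.0), which made up most of the gap between the sums. Clec9a (1.25 against 2.0), Batf3 (8.25 against 9.5) and Itgae (4.75 against 5.5) had the lower mean there, and Xcr1 had no summit assigned to it. Of the cDC2 genes 8 had the higher mean in cDC2, and Itgam, which encodes the sorted marker CD11b, did not (8.5 in cDC1 and 8.0 in cDC2). Several cluster genes are also active in monocytes and neutrophils. The sums over 9 monocyte and macrophage genes were 32 to 35 in cDC1 and 27 to 33 in cDC2, over 7 neutrophil genes 7 to 9 and 8 to 11, with Mpo and Elane at 0 in every library. Of the neutrophil genes, 3 had the higher mean in cDC1 and 2 in cDC2. The widest gap was at Csf3r (means of 2.75 in cDC1 and 5.0 in cDC2). The sums over 4 plasmacytoid genes were 21 to 28 and 29 to 34, a gap that came mostly from Tcf4 (means of 18.25 and 24.5). Siglech (4.0 and 4.25), Bst2 (1.0 and 1.25) and Ly6d (1.0 and 1.0) were near level. The sums over 4 B cell genes were 9 to 12 and 10 to 16. Cd79a, a B cell receptor gene, had 0 summits in cDC1 and 1 in each cDC2 library, while Pax5 overlapped (6 to 8 and 6 to 11) and Ms4a1 had the lower mean in cDC2 (3.0 and 2.5). Over 3 T cell genes the sums were 5 to 7 and 5 to 8. The part of other cell types in the results was not tested. In bulk libraries, fewer cells with an open site and a less open site in each cell cannot be told apart.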

How the data were processed

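The 8 ATAC-seq libraries were grouped by their titles. The authors deposited 1 list of peak summits per library, with a score that was read as a negative log10 (−log10) q value because its lowest value was 1.30 to 1.36 in each list. Bowtie2, SAMtools, MACS2 and MultiQC, with mm10 (GRCm38), are named in the submitters' processing notes. Versions, filters and the handling of reads that map to several related genes are not given in the sources used here, and the cluster's genes are close in sequence, so sites in them are uncertain to that extent. The Tn5 offset is likewise not given.

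The genes, gene lists and tests were chosen with earlier results of these data known. Scores were used only to rank summits within a library. Gene spans came from RefSeq GRCm38.p6. Summits went to the nearest protein-coding gene within 50 kb, and sites joined summits within 250 bp. Genes averaging 1 summit or more were fitted as log2(summits + 1) with limma 3.58.1 in R 4.3.3, using 1 mean per group and Benjamini-Hochberg adjustment over all genes at 0.05. To each variance was added that of rounding to whole numbers, 0.0833 squared summits, a treatment taken from an earlier analysis that chose it after seeing these data. Rank percentiles were fitted with limma over sites found in all libraries. Sites, the rank comparison without overlap (also by percentile in the full lists) and the promoter stretch were handled in Python 3.11.15. The fits were tested on simulated data. No 2 libraries shared a summit with the same position and score. Named were the 8 genes, their neighbours, the downstream list, sites found in 1 group only, the 5 sites of highest mean rank and the 5 genes most like Clec4a4; other sites were chosen after their values were seen. The 250-base promoter window was searched first and the whole entry afterwards. No genome sequence or protein table was used here, so site sequences and protein motifs were not searched. Summit-to-start distances use listed starts. The flanking sequence of 1 gene and the values of 1 marker gene are not reported here.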

Additional observations from a re-analysis of the deposited data

How the results depend on the processing

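No alternative changed the sign of a difference that had passed its test, but 38 values of differences that had not passed changed sign. The Clec4b1 subset difference became -0.40 with summits at most 20 kb or 10 kb away or counted in the 20 kb window. With the full lists, Clec4d became -0.10 by subset and -0.10 by genotype, and the difference of genotype effects of Clec4a4 became -0.21 (-0.32 in the 20 kb window). That of Clec4a1 became 0.29 with the 30868 best summits. In ranks with the full lists, the Clec4b1 start became -6.002 points by subset and 4.24 by genotype, and by genotype the Clec4a2 site became 0.285 and the site inside Clec4d 2.87. With a library left out, the log2 ranges were -0.080 to 0.127 for Clec4a1 and -0.042 to 0.25 for Clec4d by genotype, and -0.415 to 0.585 for Clec4a4 and -0.085 to 0.50 for Clec4d in the difference of genotype effects. The rank ranges by subset were -3.76 to 1.88 at chr6:122939771-122939863 and -5.35 to 13.3 at the Clec4b1 start. By genotype they were -5.12 to 5.85 at chr6:122946926-122946961, -10.97 to 7.73 at the Clec4b1 start and -8.77 to 3.83 inside Clec4d. For the difference of genotype effects they were -20.5 to 1.41 at chr6:122946926-122946961, -5.46 to 9.85 between Clec4n and Clec4d, and -22.7 to 2.46 inside Clec4d. Of 296 recomputed counts that answer a comparison, 263 stayed within 1.5 times the reported count and 33 moved. Counts of 0 that stayed at 0 are among the 263, so this total does not measure how stable the calls were. The 2 genes called higher in cDC2 became 0 with the full lists and 1 with the 30868 best summits, a pseudocount of 0.5, no filter on low genes, limma without the rounding variance, or trend and robust variances, and 1 to 2 with a library left out. With the 30868 best summits the gene was Clec4a3, and Clec4a4 was not tested. With a filter of a mean of at least 3 summits the count stayed at 2, but the genes were Clec4a1 (limma adjusted p = 0.0226) and Clec4a3. Both had a cDC1 mean of 2.25, under that filter, and were admitted only through their cDC2 libraries. That count is therefore a description. The 2 sites in cDC2 only became 1 with the full lists, the 30868 best summits, or summits chained within 100 bp, and 2 to 4 with a library left out, 4 without KO cDC1 replicate 1. The 8 sites ranked higher in cDC2 became 4 with percentiles in the full lists and 5 with the 30868 best summits. The 0 ranked higher in cDC1 became 1 with percentiles in the full lists, and ranged from 0 to 1 with a library left out, being 1 without WT cDC1 replicate 2, KO cDC1 replicate 2, WT cDC2 replicate 1 or KO cDC2 replicate 2. The 0 ranked higher in WT also ranged from 0 to 1, being 1 without KO cDC1 replicate 1. In the rank fit, the 1 site called higher became 2 with the full lists, the log2 of the rank, or sites in at least 6 libraries, and 0 to 1 with a library left out, 0 without WT cDC2 replicate 1. The 2 called with the full lists were the Clec4a3 start and the edge of Clec4a4, and the Clec4a1 site was not among them. The 0 called lower became 2 of 11 with the full lists, where 15.5% of all sites were called lower, and 1 with the log2 of the rank, and ranged from 0 to 1 with a library left out, being 1 without KO cDC1 replicate 2 or KO cDC2 replicate 2. Some settings keep fewer summits or libraries, but the cause of these moves was not tested. With the replicate number as a block, 2 genes were called higher, and 1 site was called higher and 1 lower, the latter at chr6:122946926-122946961 (-14.8 points, limma adjusted p = 0.0391). The labels do not say whether a shared number marks the same animal, so pairing is unknown. Deviations of same-numbered libraries correlated at 0.044 in WT and 0.154 in KO for ranks, and at 0.017 and 0.029 for summits per gene. Only the KO value for ranks was over the 0.1 set for pairing. Unknown depth limits every count of peaks here, since a weak peak can miss a list through depth alone. The promoter stretch of 9 bases in 5 genes was found only with the whole entry, and the 250 bases before the start alone gave 7 bases.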
